A study of Homo sapiens with 12 samples.

Results

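Ribosome biogenesis factors are the proteins that make and process ribosomal RNA and assemble it with ribosomal proteins, and 40 of them were followed here in the RNA of HUDEP-2 cells. The 40 genes were chosen by name, and each matched 1 of the 54628 gene rows of the count table. All 40 were among the 15492 genes with enough reads to be tested. By their known roles they fell into 9 proteins of small nucleolar ribonucleoproteins (snoRNPs), 8 genes of RNA polymerase I and the nucleolus, 13 factors of the small (40S) subunit and 10 factors of the large (60S) subunit.

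HUDEP-2 is a human line of immortalised erythroid precursors, whose growth needs the Kit receptor and its ligand, stem cell factor (SCF). The cells carried sgControl, a scrambled guide, or sgEGR1, a guide against a regulatory element upstream of EGR1, which the study used with a repressive dCas9 to lower EGR1, an early response transcription factor. After 5 h without growth factors, the cells of each guide received PBS or 50 ng/mL SCF for 1 h, and messenger RNA was sequenced from 3 replicates of each of the 4 groups. The cells were transduced pools of 1 line, so the replicates do not represent separate donors, and the p-values below measure the spread between these libraries.

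Ribosome production begins in the nucleolus, where RNA polymerase I transcribes the precursor of the ribosomal RNAs. SnoRNPs guide its chemical modification and cleavage, and successive sets of assembly factors, helicases, GTPases and kinases build the precursors of the 2 subunits and escort them to the cytoplasm. Genes of this group are known targets of the growth-induced transcription factor MYC, and erythroid precursors are known to be sensitive to defects of ribosome assembly.

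Library totals ran from 23.5 to 32.04 megacounts, and the SCF libraries of sgControl cells were deeper (30.04 to 31.6) than the PBS libraries (25.8 to 27.3). The 14 erythroid markers were all expressed, with a summed level per library of 27489 to 31273 counts per megacount of the plain library total. Megakaryocyte, myeloid and lymphoid markers summed to at most 0.814, 0.736 and 0.697 on the same scale. All CPM below are counts per megacount of the TMM-scaled library total. EGR1 itself, the targeted gene, stood at 10.9, 5.99 and 7.45 CPM after PBS and 208, 239 and 171 CPM after SCF in sgControl cells. In sgEGR1 cells EGR1 was at 2.04, 1.12 and 0.977 CPM after PBS and 40.4, 57.4 and 204 CPM after SCF. The library labelled sgEGR1 SCF replicate 3 therefore had EGR1 at the level of the sgControl SCF libraries and went against its label. Some of the counts and medians that rest on it are also given without it. The others, among them the library overlaps, the correlations and the other gene lists, include it. Without that library the average log2 fold changes of the 13 members called below ranged from 0.14 to 0.63, all above 0. Of all 40 members 31 were then above 0. In each group the replicate 1 library was separated from the other two along the first principal component, and 26.6% of all genes differed between replicate 1 and the others.

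SCF raised a subset of the ribosome biogenesis genes within 1 h and lowered none past the threshold. Averaged over both guide groups, 13 of 40 members (32.5%) were called higher with SCF, and 0 were called lower, by edgeR's quasi-likelihood test at an adjusted p under 0.05. Of all genes tested 5.58% were called higher and 3.45% lower. Among genes expressed at or above the level of the lowest member the share called higher was 8.62%. The 60S factor NIP7, at 1.56-fold, had the largest change, and the 13 changes ranged down to 1.11-fold for NOLC1. The median log2 fold change over the 40 members was 0.08, with 33 of 40 above 0, against a median of 0.00 over all genes tested, 48.5% of which were above 0. By role, 4 of 9 snoRNP proteins, 1 of 8 polymerase I and nucleolar genes, 4 of 13 40S factors and 4 of 10 60S factors rose.

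Measured as a whole the group moved little. The summed level of the 40 members in sgControl cells was 5753 ± 172 CPM with PBS against 6081 ± 208 CPM with SCF (SD, n = 3). In sgEGR1 cells it was 5719 ± 215 against 6010 ± 355 CPM. NCL, NPM1 and FBL supplied 49.1% to 50.2% of that sum in the group averages, and none of these 3 passed the test. Per kilobase of mRNA, NPM1 was the most abundant member (901 CPM per kb), followed by FBL (398) and NCL (329). The 13 members that rose lay between 3.38 and 104.5 CPM per kb, with a median of 20.4, and the other 27 between 3.58 and 901, with a median of 24.5.

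**Figure D1:**
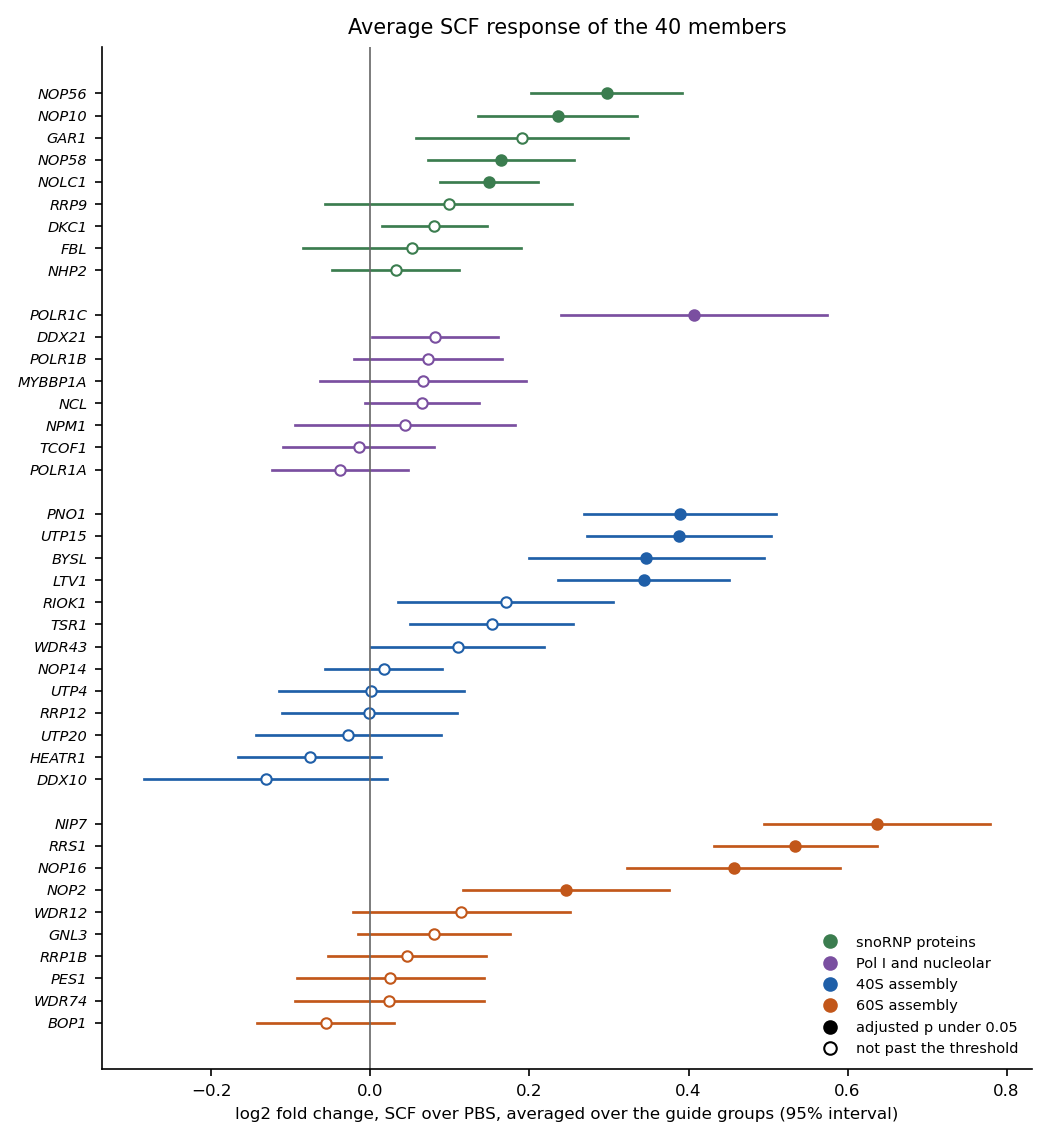
Log2 fold change of each of the 40 members between SCF and PBS, averaged over the guide groups, with its 95% interval, ordered within the 4 role groups. Filled points passed the adjusted p threshold of 0.05. Members that rose are found in every role group, and no interval lies wholly below 0.

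The large-subunit factors held the 3 largest changes. Positions are those of GENCODE release 44 on hg38, and values are listed in the order of replicates 1, 2 and 3. NIP7 (chromosome 16, 69337996 to 69343106, plus strand), a factor of pre-60S maturation, was at 22.8, 26.3 and 25.0 CPM after PBS and 35.03, 37.7 and 41.6 CPM after SCF in sgControl cells. For NIP7 in sgEGR1 cells the levels were 22.2, 26.8 and 21.5 CPM after PBS and 35.3, 37.4 and 37.8 CPM after SCF. All SCF libraries of NIP7 exceeded the PBS libraries of their guide, and the average log2 fold change was 0.64 ± 0.065 (SE, adjusted p = 8.7e-05). RRS1 (chromosome 8, 66429014 to 66430733, plus strand), which brings the 5S ribonucleoprotein into the early large subunit, stood at 28.7, 28.0 and 28.3 CPM after PBS and 43.7, 43.0 and 42.1 CPM after SCF in sgControl cells. In sgEGR1 cells RRS1 stood at 28.1, 28.1 and 29.2 CPM after PBS and 36.8, 37.5 and 43.995 CPM after SCF. Every SCF library of RRS1 lay above every PBS library of the same guide, and the average log2 fold change was 0.53 ± 0.047 (SE, adjusted p = 2.9e-05). Its 6 PBS libraries lay between 28.0 and 29.2 CPM. NOP16 (chromosome 5, 176383946 to 176388927, minus strand), another nucleolar pre-60S factor, measured 13.4, 13.8 and 15.8 CPM after PBS and 21.4, 19.9 and 20.6 CPM after SCF in sgControl cells. The sgEGR1 cells gave NOP16 values of 13.1, 15.2 and 14.4 CPM after PBS and 17.7, 18.1 and 20.2 CPM after SCF. NOP16 thus had no overlap between SCF and PBS under either guide, with an average log2 fold change of 0.46 ± 0.061 (SE, adjusted p = 7.0e-04). NOP2 (chromosome 12, 6556863 to 6568691, minus strand), an rRNA methyltransferase, was at 26.3, 24.5 and 23.3 CPM after PBS and 32.5, 28.8 and 29.7 CPM after SCF in sgControl cells. With the sgEGR1 guide, NOP2 was at 22.7, 26.3 and 25.9 CPM after PBS and 25.9, 29.4 and 30.5 CPM after SCF. NOP2 had higher SCF libraries without overlap in sgControl cells but overlapping ones in sgEGR1 cells, and the average log2 fold change was 0.25 ± 0.059 (SE, adjusted p = 0.022).

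The other 6 large-subunit members did not pass the test. At the low end stood WDR74 and BOP1. WDR74, a WD-repeat factor of the pre-60S particle, stood at 29.2, 32.3 and 32.5 CPM after PBS and 32.4, 33.9 and 33.4 CPM after SCF in sgControl cells. In sgEGR1 cells WDR74 stood at 31.3, 33.3 and 31.4 CPM after PBS and 27.3, 32.4 and 33.8 CPM after SCF. The SCF and PBS libraries of WDR74 overlapped under each guide, and the average log2 fold change was 0.024 ± 0.054 (SE, adjusted p = 0.86). BOP1, which forms the PeBoW complex with PES1 and WDR12, measured 234, 235 and 223 CPM after PBS and 221, 238 and 211 CPM after SCF in sgControl cells. The sgEGR1 cells gave BOP1 values of 229, 236 and 235 CPM after PBS and 206, 233 and 228 CPM after SCF. BOP1 overlapped between SCF and PBS under both guides, with an average log2 fold change of -0.056 ± 0.040 (SE, adjusted p = 0.46). The other 2 PeBoW members had log2 fold changes of 0.025 (95% interval -0.093 to 0.14) for PES1 and 0.11 (95% interval -0.023 to 0.25) for WDR12. The same measure was 0.080 (95% interval -0.016 to 0.18) for GNL3 (nucleostemin) and 0.046 (95% interval -0.054 to 0.15) for RRP1B.

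Among the small-subunit factors, 4 rose by similar amounts. PNO1 (chromosome 2, 68157888 to 68176238, plus strand), an RNA-binding protein of the pre-40S particle, stood at 14.1, 13.2 and 14.5 CPM after PBS and 18.3, 18.5 and 18.8 CPM after SCF in sgControl cells. For PNO1 in sgEGR1 cells the levels were 14.3, 13.3 and 14.9 CPM after PBS and 16.5, 19.2 and 19.2 CPM after SCF. Every SCF library of PNO1 lay above every PBS library of the same guide, and the average log2 fold change was 0.39 ± 0.055 (SE, adjusted p = 0.0011). UTP15 (chromosome 5, 73565443 to 73583380, plus strand), a subunit of the complex that first binds the nascent rRNA precursor, measured 15.7, 13.9 and 14.0 CPM after PBS and 18.2, 20.3 and 19.0 CPM after SCF in sgControl cells. In sgEGR1 cells UTP15 stood at 15.5, 15.9 and 14.5 CPM after PBS and 19.0, 21.0 and 19.7 CPM after SCF. UTP15 thus had no overlap between SCF and PBS under either guide, with an average log2 fold change of 0.39 ± 0.053 (SE, adjusted p = 8.4e-04). BYSL (chromosome 6, 41921499 to 41933046, plus strand), a pre-40S factor carried from the nucleolus to the cytoplasm, was at 31.0, 35.6 and 34.8 CPM after PBS and 39.9, 45.1 and 46.6 CPM after SCF in sgControl cells. The sgEGR1 cells gave BYSL values of 28.9, 36.2 and 36.2 CPM after PBS and 39.3, 42.0 and 44.9 CPM after SCF. All SCF libraries of BYSL exceeded the PBS libraries of their guide, and the average log2 fold change was 0.35 ± 0.068 (SE, adjusted p = 0.0070). LTV1 (chromosome 6, 143843338 to 143863812, plus strand), a late pre-40S chaperone, stood at 46.7, 45.2 and 45.2 CPM after PBS and 56.9, 55.7 and 62.0 CPM after SCF in sgControl cells. With the sgEGR1 guide, LTV1 was at 42.0, 46.4 and 43.3 CPM after PBS and 49.9, 56.8 and 59.9 CPM after SCF. Every SCF library of LTV1 lay above every PBS library of the same guide, and the average log2 fold change was 0.34 ± 0.050 (SE, adjusted p = 0.0011).

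The other 9 small-subunit members did not pass the test and gave small differences in either direction. HEATR1, a large subunit of the same early complex as UTP15, was at 175, 170.0 and 184 CPM after PBS and 161, 174 and 172 CPM after SCF in sgControl cells. With the sgEGR1 guide, HEATR1 was at 174, 186 and 197 CPM after PBS and 163, 179 and 181 CPM after SCF. The SCF and PBS libraries of HEATR1 overlapped under each guide, and the average log2 fold change was -0.076 ± 0.041 (SE, adjusted p = 0.31). DDX10, an RNA helicase with the lowest fold change of all 40 members, stood at 24.1, 24.6 and 28.4 CPM after PBS and 21.5, 24.2 and 24.5 CPM after SCF in sgControl cells. For DDX10 in sgEGR1 cells the levels were 22.9, 26.1 and 22.1 CPM after PBS and 19.1, 22.6 and 23.4 CPM after SCF. DDX10 overlapped between SCF and PBS under both guides, with an average log2 fold change of -0.13 ± 0.070 (SE, adjusted p = 0.30). The log2 fold changes were -0.028 (95% interval -0.14 to 0.089) for UTP20 and 0.00099 (95% interval -0.12 to 0.12) for UTP4. Those of RRP12 and NOP14 were -0.0013 (95% interval -0.11 to 0.11) and 0.016 (95% interval -0.057 to 0.090). The late factors TSR1 and RIOK1 and the early factor WDR43 had unadjusted p-values of 0.0071, 0.018 and 0.048 in edgeR's test, with log2 fold changes of 0.15, 0.17 and 0.11, but no adjusted p under the threshold.

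All 9 snoRNP proteins had a log2 fold change above 0, and 4 passed. NOP56 (chromosome 20, 2652593 to 2658393, plus strand), a core protein of box C/D snoRNPs, measured 145, 152 and 147 CPM after PBS and 174, 179 and 189 CPM after SCF in sgControl cells. For NOP56 in sgEGR1 cells the levels were 134, 147 and 144 CPM after PBS and 159, 179 and 187 CPM after SCF. NOP56 thus had no overlap between SCF and PBS under either guide, with an average log2 fold change of 0.30 ± 0.043 (SE, adjusted p = 0.0012). Its partner NOP58 (chromosome 2, 202265736 to 202303661, plus strand) was at 136.3, 153.7 and 158.5 CPM after PBS and 159.5, 161.4 and 161.0 CPM after SCF in sgControl cells. In sgEGR1 cells NOP58 stood at 139.2, 143.0 and 144.5 CPM after PBS and 155.6, 166.4 and 176.8 CPM after SCF. All SCF libraries of NOP58 exceeded the PBS libraries of their guide, and the average log2 fold change was 0.16 ± 0.042 (SE, adjusted p = 0.029). FBL (fibrillarin), the methyltransferase of the same particle, measured 398, 483 and 457 CPM after PBS and 413, 472 and 485 CPM after SCF in sgControl cells. In sgEGR1 cells FBL stood at 396, 453 and 454 CPM after PBS and 414, 473 and 481 CPM after SCF. The SCF and PBS libraries of FBL overlapped under each guide, and the average log2 fold change was 0.052 ± 0.063 (SE, adjusted p = 0.70).

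The box H/ACA proteins, which carry out pseudouridylation, were split. NOP10 (chromosome 15, 34339159 to 34343180, minus strand) stood at 50.1, 50.3 and 52.6 CPM after PBS and 57.6, 53.0 and 56.2 CPM after SCF in sgControl cells. The sgEGR1 cells gave NOP10 values of 50.5, 45.8 and 42.8 CPM after PBS and 61.2, 55.4 and 60.1 CPM after SCF. Every SCF library of NOP10 lay above every PBS library of the same guide, and the average log2 fold change was 0.24 ± 0.046 (SE, adjusted p = 0.0069). GAR1 was at 35.6, 44.3 and 39.1 CPM after PBS and 39.4, 48.5 and 47.2 CPM after SCF in sgControl cells. The sgEGR1 cells gave GAR1 values of 36.9, 36.7 and 36.4 CPM after PBS and 41.9, 41.1 and 43.2 CPM after SCF. The SCF libraries of GAR1 exceeded the PBS libraries in sgEGR1 cells but overlapped them in sgControl cells, and the average log2 fold change was 0.19 ± 0.061 (SE, adjusted p = 0.078). NHP2, with the smallest fold change of the snoRNP proteins, stood at 92.7, 96.8 and 95.4 CPM after PBS and 93.5, 95.4 and 96.4 CPM after SCF in sgControl cells. With the sgEGR1 guide, NHP2 was at 93.6, 88.9 and 84.6 CPM after PBS and 86.8, 94.5 and 97.5 CPM after SCF. The SCF and PBS libraries of NHP2 overlapped under each guide, and the average log2 fold change was 0.032 ± 0.037 (SE, adjusted p = 0.68). The pseudouridine synthase DKC1 had a log2 fold change of 0.081 (95% interval 0.014 to 0.15), and the U3 snoRNP protein RRP9 had 0.10 (95% interval -0.057 to 0.25). NOLC1 (chromosome 10, 102152176 to 102163871, plus strand), a chaperone of snoRNPs, measured 202, 200.3 and 202 CPM after PBS and 229, 232 and 221 CPM after SCF in sgControl cells. With the sgEGR1 guide, NOLC1 was at 200.02, 197 and 207 CPM after PBS and 209.8, 222 and 226 CPM after SCF. NOLC1 thus had no overlap between SCF and PBS under either guide, with an average log2 fold change of 0.15 ± 0.028 (SE, adjusted p = 0.0062).

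Of the polymerase I and nucleolar genes, POLR1C rose. POLR1C (chromosome 6, 43509702 to 43562419, plus strand), a subunit shared by RNA polymerases I and III, was at 20.6, 24.0 and 24.9 CPM after PBS and 29.7, 29.6 and 31.9 CPM after SCF in sgControl cells. For POLR1C in sgEGR1 cells the levels were 18.1, 22.3 and 24.6 CPM after PBS and 26.4, 29.8 and 30.9 CPM after SCF. All SCF libraries of POLR1C exceeded the PBS libraries of their guide, and the average log2 fold change was 0.41 ± 0.077 (SE, adjusted p = 0.0058). The largest subunit, POLR1A, measured 105, 97.3 and 98.4 CPM after PBS and 98.1, 103 and 97.7 CPM after SCF in sgControl cells. For POLR1A in sgEGR1 cells the levels were 103, 98.7 and 106 CPM after PBS and 91.0, 96.9 and 105 CPM after SCF. POLR1A overlapped between SCF and PBS under both guides, with an average log2 fold change of -0.038 ± 0.039 (SE, adjusted p = 0.64). The second subunit, POLR1B, was at 25.1, 25.3 and 26.6 CPM after PBS and 28.3, 27.7 and 28.4 CPM after SCF in sgControl cells. In sgEGR1 cells POLR1B stood at 24.7, 27.8 and 28.1 CPM after PBS and 26.6, 26.8 and 28.1 CPM after SCF. POLR1B had higher SCF libraries without overlap in sgControl cells but overlapping ones in sgEGR1 cells, and the average log2 fold change was 0.073 ± 0.043 (SE, adjusted p = 0.36). DDX21, a nucleolar RNA helicase, stood at 241, 211 and 226 CPM after PBS and 261, 246 and 246 CPM after SCF in sgControl cells. The sgEGR1 cells gave DDX21 values of 245, 234 and 232 CPM after PBS and 245, 237 and 234 CPM after SCF. DDX21 had higher SCF libraries without overlap in sgControl cells but overlapping ones in sgEGR1 cells, and the average log2 fold change was 0.081 ± 0.036 (SE, adjusted p = 0.21). TCOF1 (treacle), which links the polymerase to its templates, measured 139, 134 and 145 CPM after PBS and 134, 145 and 129 CPM after SCF in sgControl cells. With the sgEGR1 guide, TCOF1 was at 132, 140.5 and 144 CPM after PBS and 128, 143 and 147 CPM after SCF. The SCF and PBS libraries of TCOF1 overlapped under each guide, and the average log2 fold change was -0.015 ± 0.044 (SE, adjusted p = 0.90). The log2 fold changes of the abundant NCL and NPM1 were 0.065 (95% interval -0.0062 to 0.14) and 0.043 (95% interval -0.095 to 0.18), and that of MYBBP1A was 0.066 (95% interval -0.063 to 0.20).

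**Figure D2:**
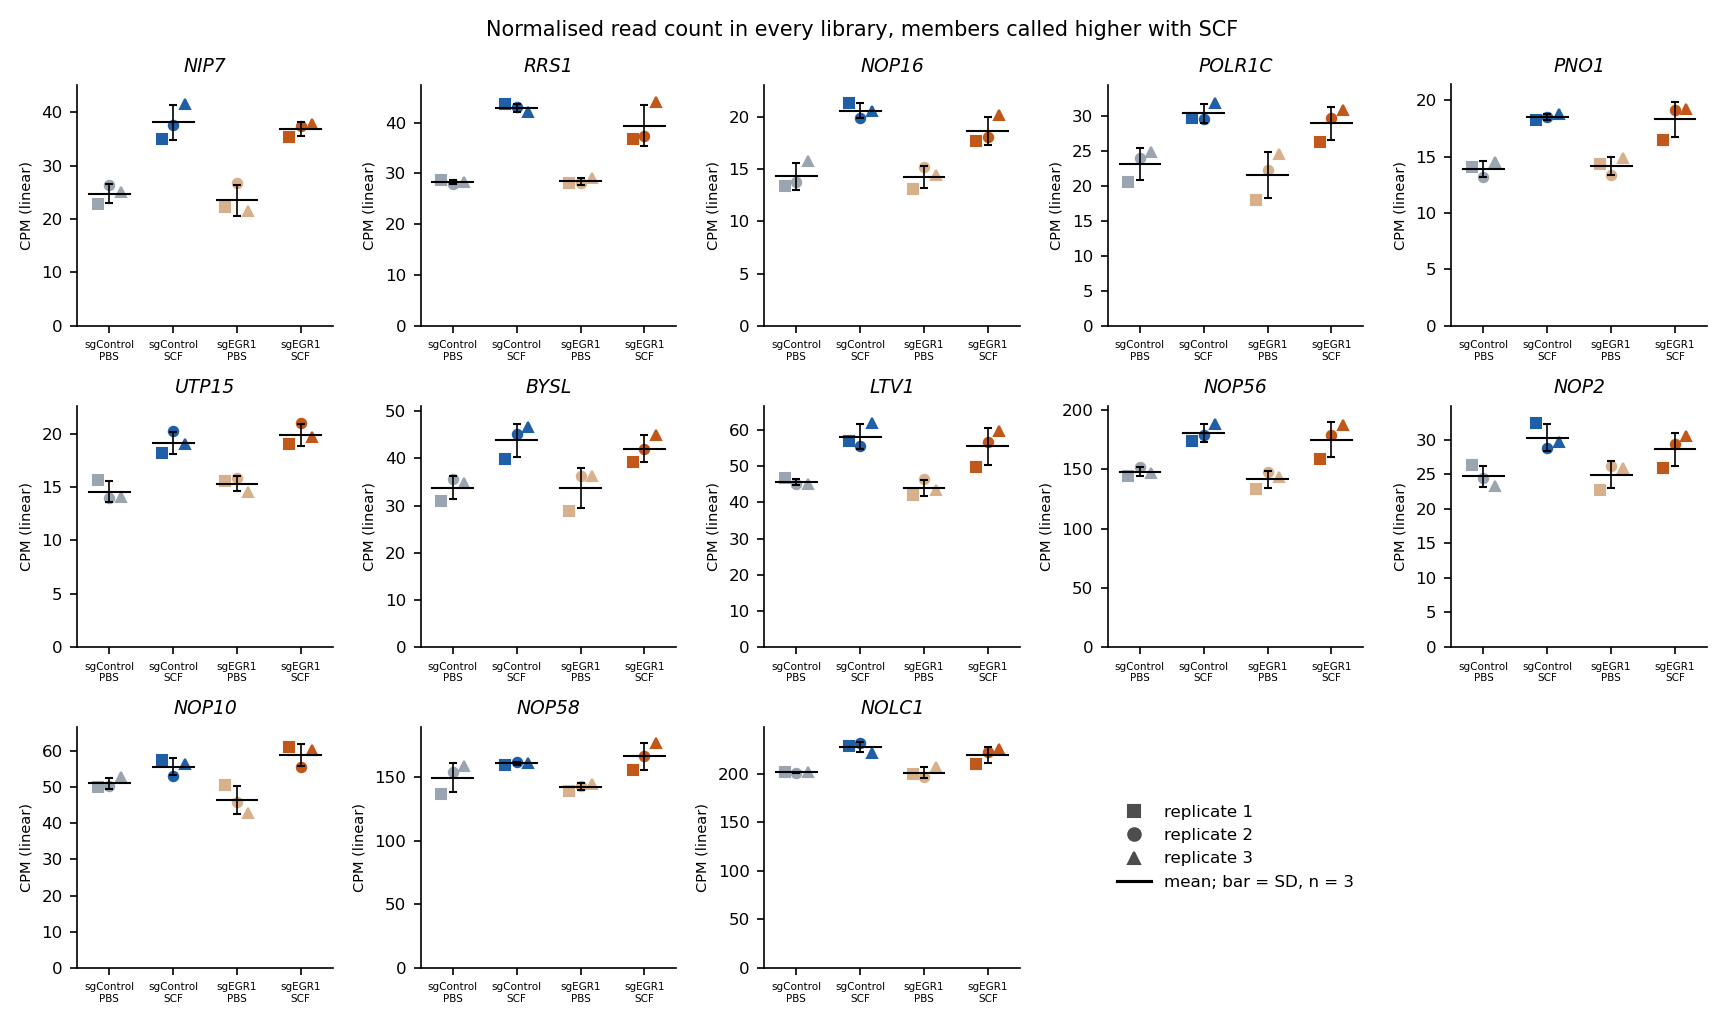
Normalised read count (CPM, linear axis from 0) of the 13 members called higher with SCF, in each of the 12 libraries, with squares, circles and triangles for replicates 1, 2 and 3, a line for the mean and a bar for the SD (n = 3). For NIP7 the SCF libraries sit between 35.03 and 41.6 CPM, all above the PBS libraries, which reach at most 26.8 CPM.

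The windows around the start sites of these genes were searched for motifs. RefSeq windows (GRCh38.p14, 250 bases before to 50 after the start) were at hand for 33 of 40 members. The E-box CACGTG, the sequence that MYC and MAX dimers bind and that is its own reverse complement, was found in 13 of the 33 (39.4%), against 7.43% of all 27305 windows, 10.2% of those of genes tested and 13.7% of those of the 692 genes called higher with SCF. It was present in 5 of 10 members that rose and in 8 of 23 that did not. The EGR motif GCGTGGG, searched on both strands, was in 4 of 33 (12.1%, against 9.79% of genes tested), with 0 of these among the members that rose. The AP-1 motif TGANTCA, also on both strands, was in 0 of 33, against 4.45% of genes tested.

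The E-boxes lay close to the start sites: 9 of the 14 were within the 50 bases after the start. The sites of the members that rose are shown first. Those of 3 members that did not rise follow, since the same letters occurred in both. These 3 had the lowest fold changes among the members with an E-box that were not called. Each line gives the gene's own strand with the E-box in capitals, and positions count from 1 at the first transcribed base.
PNO1, chr2:68157887-68157912, plus strand, E-box from position 10: tgcagctgcgCACGTGtttcagccgg
BYSL, chr6:41921517-41921542, plus strand, E-box from position 29: cttcagtcccCACGTGcgatccttcc
LTV1, chr6:143843356-143843381, plus strand, E-box from position 29: cctggggctgCACGTGtggtgaggcc
NOP2, chr12:6568242-6568266, minus strand, E-box from position 36: gtccggattgCACGTGgagggccgc
NOP10, chr15:34343291-34343316, minus strand, E-box from position -170: agggacactcCACGTGttttagcctg
NOP10, chr15:34343132-34343157, minus strand, E-box from position -11: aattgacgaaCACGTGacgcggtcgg
UTP20, chr12:101280085-101280110, plus strand, E-box from position -10: tttttccgtcCACGTGacccactcag
UTP4, chr16:69132623-69132648, plus strand, E-box from position -16: agcgcgcgcgCACGTGgggccggggc
NOP14, chr4:2963376-2963401, minus strand, E-box from position 16: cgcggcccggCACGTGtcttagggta
Each of these stretches overlapped an annotated exon, of the gene itself or, for the upstream site of NOP10, of NUTM1.

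The SCF response was also fitted under each guide alone. In sgControl cells 8 of 40 members were called higher and 0 lower (2.12% and 0.775% of all genes), with a median log2 fold change of 0.11 over the members and 34 of 40 above 0 (48.2% of all genes). In sgEGR1 cells it was again 8 higher and 0 lower (1.81% and 0.788% of all genes), with a median of 0.07 and 31 above 0 (49.8% of all genes). The sgEGR1 median was 0.036, with 29 members above 0, without the library labelled SCF replicate 3, and 0.13, with 32 above 0, without SCF replicate 1. NIP7, RRS1, NOP16, PNO1, UTP15, LTV1 and NOP56 were called in both. NOLC1 was called in sgControl cells alone and NOP10 in sgEGR1 cells alone, which is no test of a difference between the guides. NIP7 gave 0.62 ± 0.092 (SE) in sgControl and 0.65 ± 0.092 in sgEGR1 cells on the log2 scale, and RRS1 gave 0.60 ± 0.066 and 0.47 ± 0.066.

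Counted by library, the SCF libraries lay above all PBS libraries for 21 members in sgControl cells (10.4% of all genes) and for 13 in sgEGR1 cells (11.2%). This held within both guides for 12 members, against 5.57% of all genes, or 8.7% of genes at or above the lowest member's level. The 12 were the called members other than NOP2. Across the 40 members the responses under the 2 guides, which share no libraries but share replicate numbers and genes of unlike depth, had a Pearson correlation of 0.91 and a Spearman correlation of 0.83.

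These counts depended on single libraries, and each comparison sets 3 libraries against 3. The 8 calls in sgControl cells became 3 without PBS replicate 2, 4 without PBS replicate 3, 4 without SCF replicate 2 and 3 without SCF replicate 3. The share of all genes called higher fell alongside, from 2.12% to 1.05%, 0.917%, 1.29% and 1.21%. In sgEGR1 cells they became 4, 2 and 2 without PBS replicates 1, 2 and 3, and 3 and 2 without SCF replicates 2 and 3. There the share of all genes called higher went from 1.81% to 1.55%, 0.836% and 0.853%, and to 0.898% and 1.00%. NIP7 and RRS1 remained called in each of these. The average response lost 2 of its 13 calls without the library labelled sgEGR1 SCF replicate 3, NOP58 (adjusted p = 0.075) and NOP2 (adjusted p = 0.057), by edgeR's test, with 4.59% of all genes called higher.

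**Figure D3:**
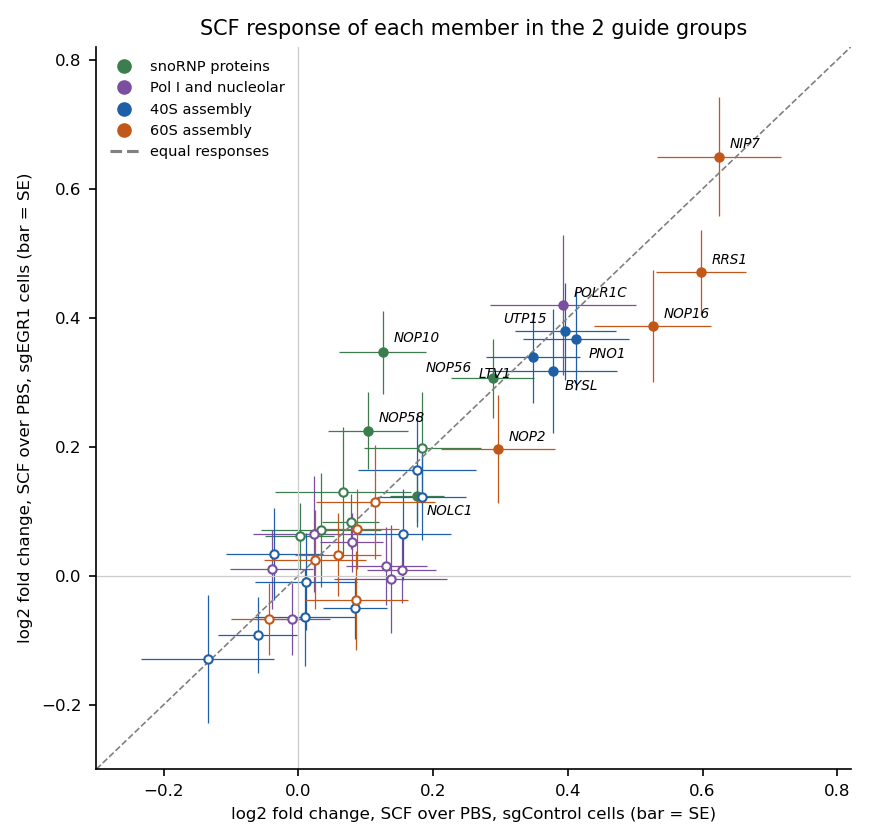
Log2 fold change between SCF and PBS of each member in sgControl cells (horizontal axis) and in sgEGR1 cells (vertical axis), with bars of 1 SE and a dashed line of equal responses. Filled points passed the threshold in the average response, and NIP7 (0.62 and 0.65) and RRS1 (0.60 and 0.47) lie farthest from 0.

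Direct tests between the guides called no member. After PBS, after SCF and for the difference in SCF response, 0 of 40 members passed by edgeR (0% of all genes in each). DESeq2 also called 0 members in each, and 20, 5 and 4 genes in all. EGR1 itself, the targeted gene, was not called by edgeR either, although its level after PBS was lower in every sgEGR1 library than in every sgControl library. The lack of calls therefore does not show that the members had equal levels. By edgeR 0, 0 and 1 members had an unadjusted p under 0.05, against 4.62%, 2.33% and 1.98% of all genes. After PBS the smallest p-values belonged to NOP10 (-0.14, 95% interval -0.28 to 0.0043), NOP14 (0.086, 95% interval -0.018 to 0.19) and NHP2 (-0.093, 95% interval -0.21 to 0.020). After SCF they belonged to RRS1 (-0.12, 95% interval -0.26 to 0.020), WDR43 (-0.12, 95% interval -0.27 to 0.033) and NOP16 (-0.15, 95% interval -0.33 to 0.041). The sgEGR1 libraries were lower than the sgControl libraries after SCF for 30 of 40 members, with a median log2 difference of -0.05, while 49.8% of all genes were higher in sgEGR1 cells. This direction was lost without 1 library, sgEGR1 SCF replicate 1, where the median was 0.0025, with 21 of 40 members higher in sgEGR1 cells. Without sgControl SCF replicate 3 the median was -0.024, with 11 of 40 members higher. The median was -0.078, with 6 of 40 higher and RRS1 at -0.21, when the library labelled sgEGR1 SCF replicate 3 was left out.

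The difference in SCF response, sgEGR1 minus sgControl, was largest for NOP10. In sgEGR1 cells the mean level of NOP10 was 46.4 ± 3.89 CPM with PBS and 58.9 ± 3.07 CPM with SCF (SD, n = 3). Its means in sgControl cells were 51.0 ± 1.42 and 55.6 ± 2.35 CPM. The log2 difference of these responses was 0.22 (95% interval 0.021 to 0.42), with an unadjusted p of 0.033 and an adjusted p of 1.00 by edgeR. With SCF replicate 3 of sgEGR1 cells omitted the difference was 0.21. The next smallest p-values were those of NOP14 (-0.13, 95% interval -0.28 to 0.013) and DDX21 (-0.14, 95% interval -0.30 to 0.015). The 95% intervals of 39 of the 40 differences included 0, and their ends ran from -0.41 to 0.42, so differences in response within those intervals were not resolved by these libraries.

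The other genes of the pathway were examined in fixed lists. Beside their counts, 5.58% of all genes tested were called higher and 3.45% lower in the average response. Among genes at or above the lowest member's level, 8.62% were called higher. Of 46 further 40S factors, 6 were called higher and 0 lower in the average response, led by UTP3 (0.30 ± 0.037), IMP3 (0.26 ± 0.050) and EMG1 (0.24 ± 0.046), components or modifiers of the early small-subunit particle. Of 50 further 60S factors tested, 10 were higher, led by BRIX1 (0.51 ± 0.055), URB2 (0.49 ± 0.054) and MAK16 (0.42 ± 0.050), and 1 was lower, the AAA ATPase NVL (-0.17 ± 0.043). The medians of these lists were 0.06 and 0.03. None of 12 further polymerase I genes passed by edgeR, which in so short a list does not stand apart from the 5.58% of all genes. By the same test 2 of them, POLR1G and POLR1F, had an unadjusted p under 0.05, against 22.7% of all genes. Of 19 RNA polymerase III genes 3 were higher, POLR3D (0.36 ± 0.067), POLR3F (0.22 ± 0.058) and GTF3C4 (0.18 ± 0.038), and BRF2, an initiation factor, was lower (-0.21 ± 0.041).

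The structural proteins of the ribosome did not follow the assembly factors. Of 79 cytosolic ribosomal protein genes 0 were called higher and 3 lower, RPL28 (-0.18 ± 0.038), RPS15 (-0.15 ± 0.037) and RPL13 (-0.15 ± 0.040). Over all genes 5.58% were called higher and 3.45% lower, so the 3 calls lay near the share of all genes called lower. The list median was -0.03, with 70 of 79 below 0, against 7976 of all 15492 genes. In sgControl cells 75 of the 79 lay below 0 (8030 of all 15492 genes), with a median of -0.08. In sgEGR1 cells 28 did (7767 of all 15492 genes), with a median of 0.01. No member of that list had a called difference in response between the guides, and 0 had an unadjusted p under 0.05 for it.

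MYC, a known activator of these genes, rose alongside them. Its level was 210.1, 233 and 227 CPM after PBS and 436, 428 and 441 CPM after SCF in sgControl cells. In sgEGR1 cells MYC was at 196, 230.1 and 237 CPM after PBS and 372, 444 and 453 CPM after SCF. The SCF libraries lay above the PBS libraries without overlap under each guide (0.95 ± 0.058 on average, and 0.96 ± 0.083 in sgControl and 0.94 ± 0.083 in sgEGR1 cells). The difference in response between the guides was -0.027 ± 0.12, which did not pass. Of its partner and antagonist genes MAX was higher (0.16 ± 0.045), and MXD3 (-0.25 ± 0.065), MXD1 (-0.24 ± 0.060) and MXD4 (-0.17 ± 0.047), which compete with MYC for MAX, were lower.

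**Figure D4:**
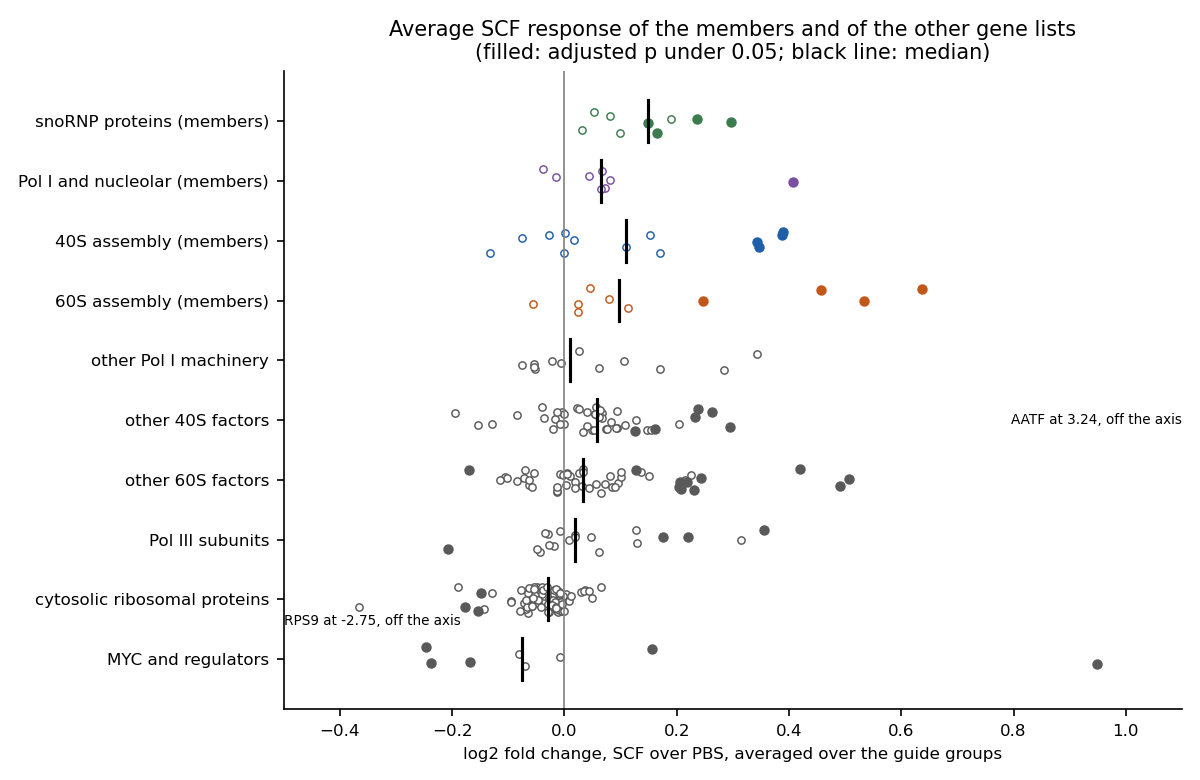
Log2 fold change between SCF and PBS, averaged over the guide groups, of the 40 members by role and of the genes of 6 other lists, each point 1 gene, filled where the adjusted p was under 0.05, with a black line at the median. AATF and RPS9 lie off the axis and are written at its ends, and neither passed. MYC (0.95) stands at the right, while the 79 ribosomal protein genes centre at -0.03.

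The members that rose had shorter gene spans, as did genes called higher over the whole table. Their median gene span was 11.7 kb (range 1.72 to 52.7 kb), against 29.4 kb (4.43 to 275.9 kb) for the other 27, and their canonical transcripts had a median of 9 exons (1 to 16) against 15 (4 to 62). RRS1, with 1 exon, is the shortest of the 40, and DDX10, with the lowest fold change, is the longest. Across the 40 members the average log2 fold change had a Spearman correlation of -0.57 with gene span and -0.69 with exon number. Over 11988 protein-coding genes tested, the median span was 18.8 kb for those called higher and 33.9 kb for the rest, and the correlation with span was -0.08. These are descriptions across genes, which differ in level and read depth together with their length.

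**Figure D5:**
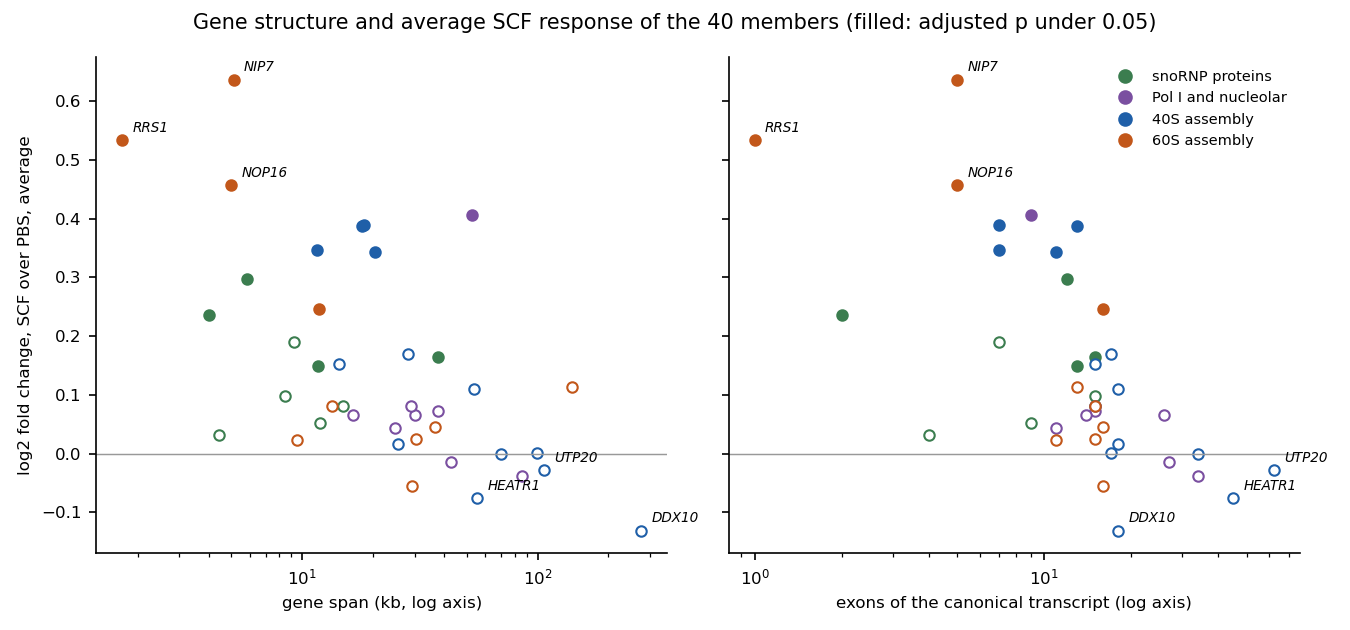
Average log2 fold change between SCF and PBS of the 40 members against gene span in kb (left, log axis) and exon number of the canonical transcript (right, log axis), coloured by role and filled where the adjusted p was under 0.05. The filled points sit at spans of 1.72 to 52.7 kb, and DDX10 lies at 275.9 kb.

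Several measurements moved with SCF beside these genes, and their part in the results was not tested. The share of counts from mitochondrial genes was 10.5 ± 0.172% after PBS and 8.94 ± 0.615% after SCF in sgControl cells, and 10.1 ± 0.260% against 9.32 ± 0.345% in sgEGR1 cells (SD, n = 3). Of the 14 erythroid markers 12 had a log2 fold change below 0, with a median of -0.12. Of these, 2 were called lower (against 3.45% of all genes), SLC4A1 (-0.26 ± 0.052), the anion exchanger of the red cell membrane, and EPOR (-0.14 ± 0.036), the erythropoietin receptor, named after their values were seen, and 0 were called higher. Fewer cells of a type and less RNA per cell cannot be told apart in bulk RNA. The mean log2 ratio of SCF to PBS within replicate 1 was above 0 for all 13 called members (0.13 to 0.65), as within replicates 2 (0.14 to 0.52) and 3 (0.13 to 0.77). The 13 were called from these same libraries, so this describes them and is no check of the calls. Over all 40 members the ratio was above 0 for 28 within replicate 1, 36 within replicate 2 and 34 within replicate 3. With a term for replicate 1, 18 of 40 members were called higher on average (10.2% of all genes), 14 in sgControl cells (5.28%) and 12 in sgEGR1 cells (5.04%). In replicates 2 and 3 alone 17 were called higher on average (6.72%).

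Exons of 23 of the 40 members overlapped those of another annotated gene, and whether the authors' counting used strand is not stated, so these counts are uncertain. Of the overlapping neighbours of called members that could be tested, COG8 beside NIP7 gave 0.080, HIGD2A and ARL10 beside NOP16 gave -0.022 and 0.037, ANKRA2 beside UTP15 gave -0.16, and XPO5, YIPF3 and LRRC73 beside POLR1C gave 0.055, -0.083 and 0.46 on the log2 scale. None of these 7 was called. In addition, 8 members have snoRNA genes within their span on the same strand, among them NOP56 with 5 and NOP58 with 4.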

How the data were processed

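RNA of 12 HUDEP-2 libraries (4 groups of 3 replicates) was analysed from 1 gene table. Per the study's methods, the authors aligned paired reads to hg38 with HISAT and made the deposited estimated counts with StringTie, and the annotation release and the use of strand in counting are not given in the sources used here. The kit named in the labels is not the one in the methods. In the table the sgEGR1 columns carry a code, assigned to sgEGR1 as the 1 construct besides the scramble. All deposited values were whole numbers, so none was rounded, and every column of sample values was used.

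Counts were fitted with edgeR 4.0.16 (R 4.3.3): filterByExpr by group (15492 genes), TMM factors, 1 coefficient per group over all 12 libraries, the quasi-likelihood F test and Benjamini-Hochberg adjustment over all genes tested, with an adjusted p under 0.05 called. SE is the absolute log2 fold change over the square root of F, and intervals are at 95%. CPM are scaled by TMM factors and not by length, and the sums of cell type markers use plain library totals. The average SCF response is the mean of the responses under the 2 guides. The procedure was tested on simulated data. Alternatives were DESeq2 1.42.0, other scalings, no filter, a replicate block, a term for replicate 1, a minimum of 1.5-fold and leaving out each library.

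The members and gene lists were chosen with earlier results of these data known. In each role group the members with the 3 highest and 2 lowest average log2 fold changes are described by library, every called member is named, and where no member was called the 3 with the smallest p are. From each other list the 3 called genes with the largest change were named, and further called genes where a count was 5 or fewer. Promoter windows and motifs were read from RefSeq (GRCh38.p14) and checked against hg38. Same-numbered libraries of the 2 guides deviated together (correlations of residuals from 0.10 to 0.27 in every pair after PBS and after SCF), so the numbers were taken to pair them. PBS and SCF libraries of 1 guide did not in every pair (0.0077 to 0.27). Intervals and tests cover the spread between these libraries.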

Additional observations from a re-analysis of the deposited data

How the results depend on the processing

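No called member changed direction under any of the alternatives. In the average response NIP7 was called in 22 of 22 alternatives, and RRS1, NOP16, PNO1, UTP15, LTV1, BYSL, POLR1C, NOP56, NOP10 and NOLC1 in 21, with the exception of the 1.5-fold minimum. NOP2 was called in 17 and NOP58 in 13. With a minimum of 1.5-fold the calls fell to 1 in the average response, 2 in sgControl cells and 1 in sgEGR1 cells, while the shares of all genes called higher fell to 0.736%, 0.471% and 0.523%. Fitted on the groups compared alone, the sgEGR1 count was 2 (1.22% of all genes called higher). With a term for replicate 1 the sgControl count was 14. When the library labelled sgEGR1 SCF replicate 3, which that comparison does not hold, was left out as well, an alternative chosen after seeing the data, it was again 14, while the sgEGR1 count went from 12 to 11 (all genes from 1326 to 778) and the average count from 18 to 16 (all genes from 2868 to 2442). Leaving out each library in turn gave 11 to 14 calls in the average response, 3 to 10 in sgControl cells and 2 to 9 in sgEGR1 cells. The 3 comparisons between guides stayed at 0 calls under every alternative run.

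Signs in the average response were followed for 30 of the 40 members, and 3 of these, close to 0, turned, with the cause not tested. Over all 40 members the number above 0 in the average response ran from 31 to 36 across the alternatives, so other members near 0 turned too. POLR1A was 0.011 in replicates 2 and 3 only. TCOF1 was 0.0077 with library totals only, 5.7e-04 in replicates 2 and 3 only, 0.0047 without sgControl SCF replicate 3 and 0.016 without sgEGR1 SCF replicate 1. WDR74 was -0.0052 without sgEGR1 SCF replicate 3. Over all libraries left out in turn TCOF1 ran from -0.036 to 0.016 and WDR74 from -0.0052 to 0.070.

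With a replicate block the counts of members called were 12 in sgControl cells, 11 in sgEGR1 cells and 18 on average, each within 1.5 times the count without it, and 0 in the 3 comparisons between guides, where the numbers pair the libraries. All 13 calls of the average response were kept under the block. The share of all genes called higher rose too, from 2.12% to 4.88% in sgControl cells, 1.81% to 4.71% in sgEGR1 cells and 5.58% to 9.95% on average. For the SCF comparisons the libraries share only a number. Over all genes tested the average response had 2799 calls with the block and 1399 without it, and 759 with DESeq2 against 448 in sgControl cells, 773 against 402 in sgEGR1 cells. The mean levels of the members over the 12 libraries lay between 12.7 and 1289 CPM, and whether depth limited their calls was not tested.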

Other observations

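The members differed between replicate 1 and replicates 2 and 3 more often in one direction than the other. Of the 40 members 35 were lower in replicate 1, with a median log2 difference of -0.085 over the members. By edgeR 19 were called (16 lower and 3 higher), against 26.6% of all genes called in either direction. Shares of all genes by direction were not computed, so whether this skew is particular to the members was not tested. MYBBP1A, RRP1B and DDX21 had the 3 highest differences (0.16, 0.11 and 0.090), a choice made after their values were seen. Within replicate 1 the mean log2 ratio of SCF to PBS was above 0 for 28 of 40 members, and within replicates 2 and 3 for 36 and 34. In all 6 same-numbered comparisons of SCF with PBS, 20 of 40 members were higher with SCF, and 5 members, POLR1A, HEATR1, UTP20, DDX10 and BOP1, were higher in 1 of 6. These counts within replicates were not made over all genes, so no share stands beside them. The PBS and SCF libraries of a guide share only a number.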
